A study of Mus musculus with 9 samples.

Results

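The genes of the cytosolic ribosomal proteins were described in the mouse seminal vesicle at 3 ages. They were chosen by name: protein-coding rows of the count table whose symbol starts with Rpl or Rps followed by a digit, together with Rplp0, Rplp1, Rplp2 and Rpsa. Pseudogenes and the Rps6k kinases were left out. The rule found 86 of the 53379 rows, and used no measured value. Of the 86 genes, 51 encode a protein of the large subunit or a close relative of one, and 33 the same for the small subunit. The other 2, Rps19bp1 and Rpl7l1, only carry the name of a ribosomal protein. Their products are a binding partner of a ribosomal protein and a relative of Rpl7.

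The study sequenced total RNA from seminal vesicles, glands that add most of the volume of the ejaculate, and asked which transcripts differ with age. The 3 groups were mice of 3, 13 and 21 months, with 3 libraries each, and 3 months served as the youngest reference. The labels name the tissue and the age. Strain, treatment and whether the replicates are separate animals are not given in the sources used here, so p-values measure the spread between these libraries, which may be technical.

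The ribosome is built from ribosomal RNA and one copy of most ribosomal proteins, and a few stalk proteins are present in several copies. Their genes are scattered over the genome and are expressed in every cell, at levels that follow growth and protein synthesis. Many of their transcripts begin with a run of pyrimidines, the terminal oligopyrimidine tract, through which mTORC1 and the RNA-binding protein Larp1 control their translation. The seminal vesicle epithelium is a secretory tissue that translates a small number of very abundant messages.

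Pyrimidine runs near annotated starts can be looked for in the sequences themselves, and the windows printed here belong to members whose values are given below. RefSeq sequence of GRCm38.p6 around the annotated start was found for 66 of the 86 genes, and was not used for the other 20. A gene was counted if a run of at least 7 C or T reached within 20 bases of any of its annotated starts. Such a run need not begin at the first base of the transcript. This held for 39 of these 66 genes (59.1%), against 33.7% of 27025 genes in the same table. The 30 bases printed hold 15 on each side of the annotated start, 5′ to 3′, with the run in capitals. The windows are chr7:141447636-141447665 (plus strand) for Rplp2, chr14:18270972-18271001 (minus strand) for Rpl15, chr4:86857353-86857382 (minus strand) for Rps6 and chr3:28805493-28805522 (plus strand) for Rpl22l1. They are chr3:90213634-90213663 (minus strand) for Rps27, chr5:115559452-115559481 (plus strand) for Rplp0 and chr10:128549154-128549183 (minus strand) for Rpl41.
Rplp2: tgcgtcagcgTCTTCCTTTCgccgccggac
Rpl15: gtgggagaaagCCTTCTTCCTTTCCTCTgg
Rps6: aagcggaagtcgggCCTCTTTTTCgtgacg
Rpl22l1: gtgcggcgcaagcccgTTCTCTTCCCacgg
Rps27: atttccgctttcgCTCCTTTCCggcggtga
Rplp0: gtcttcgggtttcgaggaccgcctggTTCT
Rpl41: cacacgggccggctcggaagtgacgacacc
The run of Rpl15 was 17 bases long and that of Rplp2 10. In Rplp0 only the first bases of a run of 7 fall in the window. Rpl41 had no such run near this annotated start.

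Motifs of general promoter factors were also counted on both strands of the 300 bases from 250 before to 50 after each annotated start. Matches of different motifs were allowed to overlap, and a gene counted if any of its starts held the motif. CCGGAAG, the core of sites for ETS-family factors, lay in 26 of the 66 genes (39.4%) and in 9.93% of all genes. GGGCGG, the GC box, lay in 41 (62.1%) against 38.2%. AAGATGGC, a core of sites for Yy1, lay in 6 (9.09%) against 3.19%. TATAAA, the TATA box, lay in 7 (10.6%) against 15.7%. These are counts of letters and not of bound sites.

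The 9 libraries held 16536160 to 24791943 counts, and 16067 genes had enough counts to be tested. Replicates 1 and 2 at 21 months stood apart. The listed secretory genes took 56.1% to 62.3% of counts in the other 7 libraries, but 22.2% in 21-month replicate 1 and 44.3% in replicate 2. Replicate 1 also held 2.57% of counts in 10 prostate epithelium markers, which took under 0.001% in every other library. Summed counts of 12 adipocyte markers were 0.0577% of replicate 1 and 0.416% of replicate 2, and at most 0.00449% elsewhere. The 9 macrophage markers took 0.0302% and 0.0451% of these 2 libraries and 0.00798% to 0.0184% of the others. These values move with several results below, and their part in those results was not tested. In bulk tissue, fewer cells of a type and less RNA per cell cannot be told apart.

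Ribosomal protein transcripts took under 1% of the counts in 8 of the 9 libraries. Their share was 0.739%, 0.667% and 0.693% in replicates 1 to 3 at 3 months, and 0.668%, 0.662% and 0.685% at 13 months. At 21 months it was 1.15%, 0.793% and 0.697%. Replicate 1 at 21 months was therefore the highest of the 9 libraries, and it was also the library with the smallest secretory share. The 95% Wilson interval of that share was 1.148% to 1.158%. Such an interval covers counting error alone and holds no spread between libraries. Amplified reads of 1 molecule cannot be recognised here, and they would make it too narrow.

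The 21-month libraries went from the highest mean share to the lowest once the secretory genes were left out of the total. Of the remaining counts, ribosomal protein genes took 1.76%, 1.69% and 1.72% at 3 months, and 1.77%, 1.52% and 1.71% at 13 months. They took 1.48%, 1.42% and 1.59% at 21 months. All 3 libraries at 21 months lay below all 3 at 3 months, while 13 and 21 months overlapped. The TMM scale sets library sizes so that most genes match. On it the summed level of the 83 tested members was 8587, 7821 and 7943 CPM (counts per 1e+06) at 3 months. The 13-month libraries gave 8199, 6709 and 7607 and the 21-month libraries 7336, 5943 and 7123. The means were 8117 ± 412, 7505 ± 750 and 6801 ± 751 CPM (SD, n = 3 libraries each), and again only 3 and 21 months did not overlap.

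**Figure D1:**
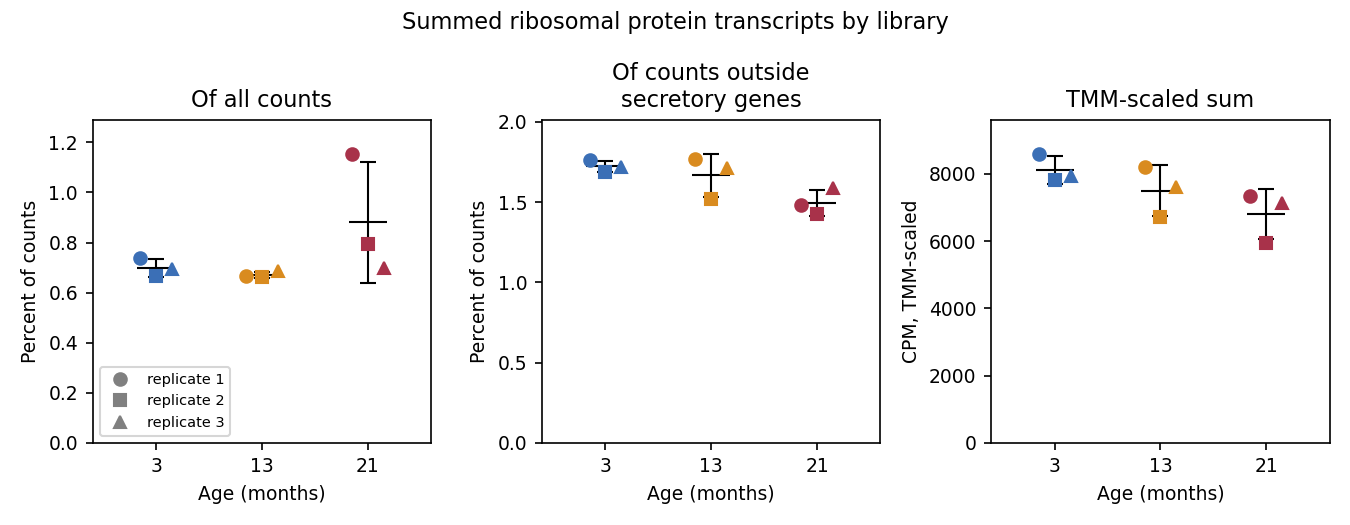
Summed transcripts of the ribosomal protein genes in each library (points, shaped by replicate) at 3, 13 and 21 months, with the mean and SD of 3 libraries. For all 86 genes they are given as percent of all counts (left) and of counts outside the listed secretory genes (middle). The TMM-scaled CPM (right) is summed over the 83 tested genes. Replicate 1 at 21 months is the highest point on the left at 1.15%, whereas all 3 libraries at 21 months lie below all 3 at 3 months in the other panels.

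Counts per kb of mRNA were summed over the 51 large-subunit and the 33 small-subunit genes, whose numbers stand at 1.55 to 1. The ratio of the sums, large to small, was 1.53, 1.479 and 1.49 at 3 months, with 1.476, 1.44 and 1.45 at 13 months and with 1.44, 1.40 and 1.46 at 21 months. The ratio does not depend on library size, and the libraries at 3 months lay above those at 13 and at 21 months, at 13 months narrowly. The sums weigh abundant genes most, and the highest per kb, Rpl41 and Rplp1, belong to the large subunit. Gene by gene, the subunits were close. The median log2 fold change was -0.11 for large and -0.09 for small at 13 against 3 months. At 21 against 3 months it was -0.20 and -0.22. Since the ratio is one value over many members, it was given no test. Per gene, the mean of the large subunit was 0.908 to 0.992 times that of the small one.

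Levels of single genes, per kb of mRNA, were far from equal. Rpl41, the gene of a very short and basic peptide of the large subunit, was the highest at 625 CPM per kb (mean of 9 libraries, scaled by library totals). Rplp1, a stalk protein, followed with 587, Rpl32 with 499, Rplp0, the base of the stalk, with 416, and Rpl4 with 365. Rpl26 stood at 318, Rps14 at 311, Rpl8 at 305, Rps15 at 304 and Rps9 at 292. The lowest members that passed the filter were Rpl24 at 0.560, Rps16 at 2.31, Rpl36al at 3.26, Rps23 at 3.59 and Rps29 at 3.76 CPM per kb. Rpl24 rested on 69 counts in all 9 libraries together, and 43 of the 86 members had a mean of at least 50 CPM.

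The level counted went with how much of the mRNA is unique in the annotated transcriptome. A median of 39.9% of the 100-base windows of a member's mRNA were also present in a transcript of another gene. No window was shared by 10 members, and over 50% were shared by 34. Across the 83 tested members the Spearman correlation of the shared percentage with CPM per kb was -0.55, which is a description across genes that share libraries and sequence. The median level was 174 CPM per kb in the 7 tested members with no shared window, and 14.1 in the 15 members sharing over 75%. How the authors counted reads that map to several places is not given in the sources used here.

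Rows annotated as pseudogenes bear on the same point. By sequence, 1022 such rows matched 81 of the members, and 400 of them had no count. The other rows together held 18.8 to 21.0 counts for every 100 counts of the members in each library, with the highest value in 21-month replicate 1. In 20 members the matched rows held more counts than the gene itself. Rps6, the small-subunit protein phosphorylated by the S6 kinases, had 2185 counts of its own over the 9 libraries and 18808 in matched rows. Rps29 had 258 and 9703, and Rpl15 3375 and 4730. Rplp0 had 100723 counts of its own against 2955, and Rpl32, with no shared window, 45818 against 2269. Levels of members with many copies are uncertain for this reason.

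**Figure D2:**
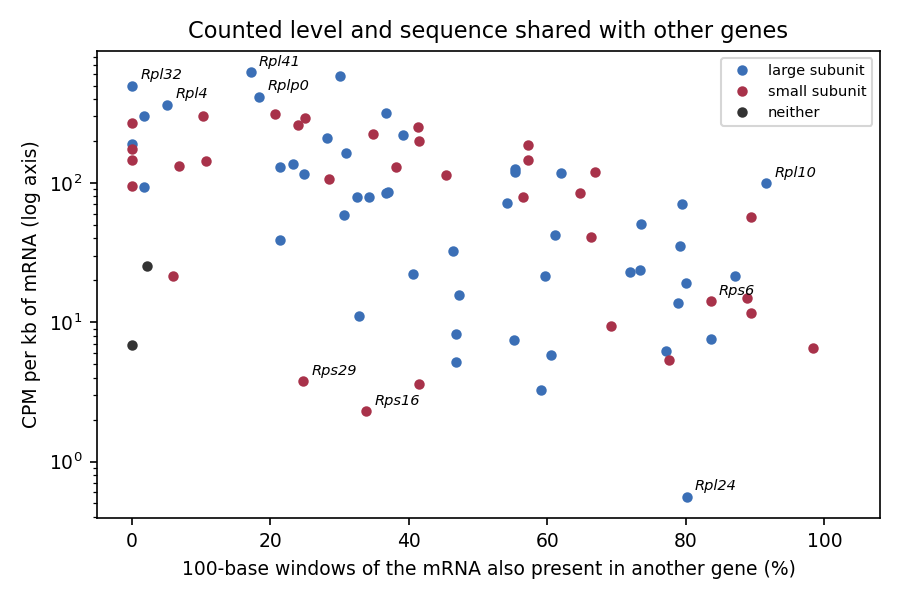
Mean level of the 83 tested genes (CPM per kb of mRNA, log axis, mean of 9 libraries) against the percentage of 100-base windows of the mRNA that another annotated gene also holds. Each point is a gene, coloured by subunit, and the Spearman correlation is -0.55.

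Age differences were small and none passed the test. In edgeR's quasi-likelihood test, with Benjamini-Hochberg adjustment over 16067 genes and a threshold of 0.05, 0 of the 83 tested members were called at 21 against 3 months. The background was 2.02% of all genes called in either direction. At an unadjusted p under 0.05, 20 members (24.1%) were lower and 0 higher at 21 months, against 10.3% and 14.1% of all genes. DESeq2 called 5 members, all lower at 21 months, against a background of 3.35% called lower, and limma-voom called 0. The median log2 fold change of the members was -0.21, beside 0.01 over all genes, and 67 of 83 were negative (80.7%), against 49.3% of all genes. Members share the same libraries, so these signs are not separate observations. Between replicates the members' median log2 level had an SD of 0.078 at 3 months and 0.20 at 21 months. The direction rests on the scaling: by library totals alone the members' median was 0.42 and that of all genes 0.62, and 9 members were called higher against a background of 34.8%.

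The spread of the changes within the family was narrow. A total of 82 of 83 members lay within 1.5-fold at 21 against 3 months, against 77.4% of all genes, and the exception was Rpl41. The median SE was 0.15 for members and 0.21 for all genes, so these shares are not a like comparison. Of the mitochondrial ribosomal proteins 76 of 77 also lay within 1.5-fold, with 55 of 55 nucleolar assembly factors and 37 of 38 initiation factors. The 95% interval of the fold change lay within 2-fold for 79 members. The other 4 were Rpl24, Rpl27, Rps27l and Rps29, of which Rpl27 is named after its values were seen. In 28 members (33.7%) all 3 libraries at 21 months lay below all 3 at 3 months, and in 0 they lay above, against 14.7% and 14.8% of all genes. The median was -0.20 for 48 tested large-subunit genes and -0.22 for 33 small-subunit genes.

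The 3 libraries at 21 months did not contribute alike. Without 21-month replicate 3, 7 members were called lower, against a background of 5.62%, and without any other single library 0 were called. The members' median was -0.23 without replicate 3, -0.29 without replicate 1 and -0.089 without replicate 2. With replicate 3 as the single library of 21 months the median was -0.15. That fit takes its spread from the other ages, and no calls were read from it. Replicates of members also differed more at the oldest age. The median SD of log2 CPM among members was 0.097, 0.17 and 0.20 at 3, 13 and 21 months, beside 0.15, 0.18 and 0.24 over all tested genes. Among the 1546 genes at or above the members' median level it was 0.090, 0.12 and 0.22. Beside genes of that level, members therefore differed more at 3 and 13 months and slightly less at 21 months.

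**Figure D3:**
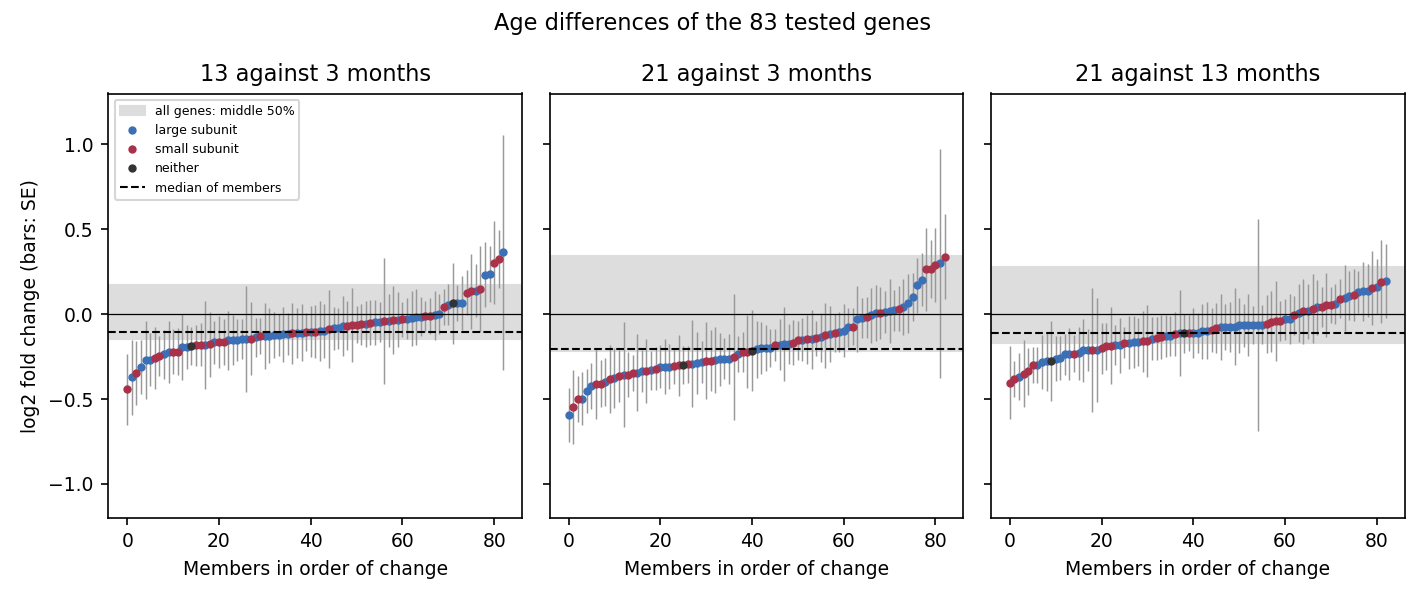
Log2 fold changes (bars: SE) of the 83 tested ribosomal protein genes, sorted within each comparison and coloured by subunit, with the members' median (dashed) and the middle 50% of all tested genes (grey). The median was -0.10, -0.21 and -0.11 at 13 against 3, 21 against 3 and 21 against 13 months on the TMM scale, and 0.42 and 0.46 in the comparisons with 21 months by library totals alone.

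The stalk of the large subunit, which recruits the translation factors that hydrolyse GTP, is made of Rplp0 and of dimers of Rplp1 and Rplp2. Rplp0 (ENSMUSG00000067274, GRCm38 chromosome 5, 115559467 to 115563727) stood at 668, 602 and 631 CPM at 3 months, at 666, 533 and 628 at 13 months and at 450.5, 446 and 519.9 at 21 months, on the TMM scale. All 3 libraries at 21 months lay below the other 6. The log2 fold change at 21 against 3 months was -0.42 ± 0.14 (SE), with an adjusted p of 0.107 by edgeR, 0.0150 by DESeq2 and 0.0496 by edgeR without 21-month replicate 3. Library totals alone gave 0.17.

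Rplp1 (chromosome 9, 61913284 to 61914542) stood at 366, 314 and 343 CPM at 3 months, at 308, 287 and 299.5 at 13 months and at 214, 252 and 283 at 21 months. The 3 ages did not overlap at all. The log2 fold change at 21 against 3 months was -0.45 ± 0.13, with an adjusted p of 0.0875 by edgeR and 0.0145 by DESeq2, and library totals alone gave 0.13.

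Rplp2 (chromosome 7, 141447370 to 141451585), the partner of Rplp1, showed another order. It stood at 87.2, 81.6 and 81.1 CPM at 3 months, at 87.5, 76.2 and 97.8 at 13 months and at 119, 80.4 and 88.0 at 21 months. The groups overlapped, and the single high library was 21-month replicate 1. The log2 fold change at 21 against 3 months was 0.20 ± 0.16, with an adjusted p of 0.445 in edgeR's test.

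Within a library, the ratio of Rplp1 to Rplp2 counts is free of library size. It was 4.20, 3.84 and 4.23 at 3 months, then 3.52, 3.77 and 3.06 at 13 months and finally 1.79, 3.13 and 3.22 at 21 months. The 3 libraries at 3 months lay above all others, and the lowest ratio was again that of 21-month replicate 1, which also held the prostate markers. The ratio of Rplp0 to Rplp2 was 7.66, 7.38 and 7.78 at 3 months, with 7.62, 6.997 and 6.42 at 13 months and with 3.78, 5.55 and 5.91 at 21 months. All 3 libraries at 21 months lay below the other 6.

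Other members of the large subunit with low values at 21 months included Rpl41 and Rpl29. Rpl41 (chromosome 10, 128548114 to 128549305) stood at 389, 304 and 319 CPM at 3 months, then 301, 252 and 264 at 13 months and finally 225, 184 and 262 at 21 months. The ages 3 and 21 months did not overlap. The log2 fold change was -0.59 ± 0.16, the lowest among the members, and the adjusted p was 0.0752 by edgeR and 0.0121 by DESeq2, while library totals alone gave -0.004. Rpl29, a heparin-binding protein of the large subunit, stood at 85.8, 79.0 and 79.5 CPM at 3 months and 62.5, 45.1 and 65.2 at 21 months. Its log2 fold change was -0.50 ± 0.16, with an adjusted p of 0.103 by edgeR.

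Among small-subunit genes, Rps19 and Rps14 had their lowest mean levels at 21 months. Rps19, a gene mutated in Diamond-Blackfan anaemia in people, stood at 191, 179.5 and 188 CPM at 3 months, with 177, 148 and 175 at 13 months and with 111, 131 and 153 at 21 months. The libraries at 3 months lay above the other 6, and 13 and 21 months overlapped. The log2 fold change at 21 against 3 months was -0.50 ± 0.14, with an adjusted p of 0.0762 by edgeR, 0.0150 by DESeq2 and 0.0202 by edgeR without 21-month replicate 3. Library totals alone gave 0.07.

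Rps14, whose loss of one copy is known from human 5q- syndrome, stood at 192, 203 and 202 CPM at 3 months, then 223, 192 and 199.99 at 13 months and finally 149, 153 and 168 at 21 months. The 3 libraries at 21 months lay below the other 6. Its log2 fold change was -0.34 ± 0.11 against 3 months and -0.38 ± 0.11 against 13 months, with adjusted p of 0.100 and 0.203 by edgeR. DESeq2 gave 0.0154 and 0.0184, and Rps14 was the only member called by DESeq2 at 21 against 13 months.

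Rpsa, which is also known as the laminin receptor, stood at 277, 225 and 225 CPM at 3 months and 174, 163 and 209.7 at 21 months. These groups did not overlap, and its log2 fold change was -0.41 ± 0.14, with an adjusted p of 0.124 by edgeR. Rps4x, an X-linked gene, stood at 241, 227 and 238 at 3 months and 191, 183 and 201 at 21 months. It gave -0.30 ± 0.11, with an adjusted p of 0.143 by edgeR, and its groups did not overlap either.

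Rps21, Rpl15 and Rpl22 were among the members whose log2 fold changes were positive without passing the test. The highest at 21 against 3 months was that of Rps27rt, at 0.34, a gene that shares most of its windows with another. Rps21 (chromosome 2, 180257377 to 180258445) stood at 61.7, 58.5 and 58.3 CPM at 3 months, then 67.5, 49.7 and 78.9 at 13 months and finally 95.9, 53.0 and 69.4 at 21 months. The groups overlapped, and the 3 libraries at 3 months were the closest together. The log2 fold change at 21 against 3 months was 0.29 ± 0.22, with an adjusted p of 0.439 by edgeR. Rpl15 gave 0.17 ± 0.16 and Rpl22 0.10 ± 0.14, with adjusted p of 0.538 and 0.694. When the counts of matched pseudogene rows were added to each member, an alternative chosen after seeing the data, Rpl15 gave -0.13.

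**Figure D4:**
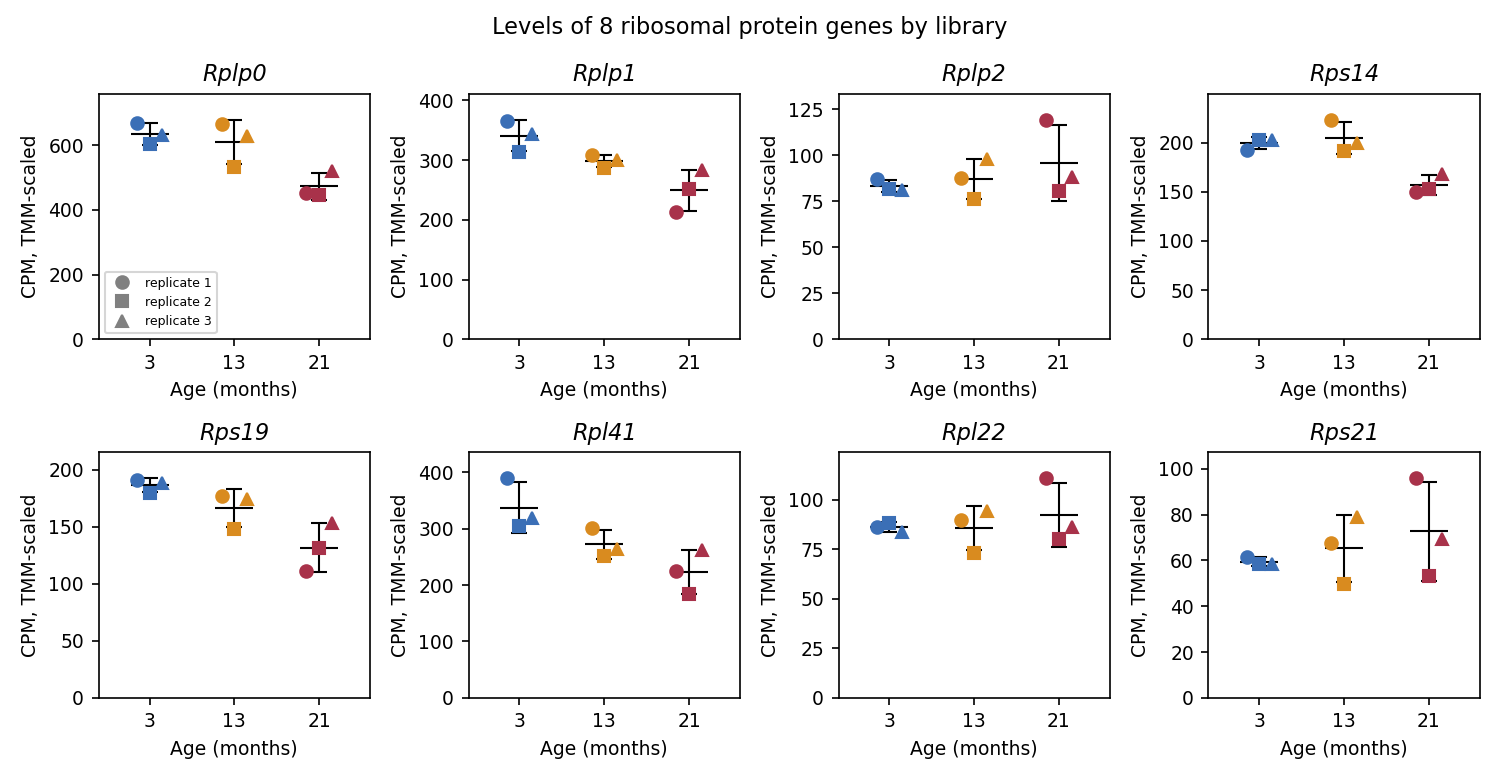
TMM-scaled CPM of 8 ribosomal protein genes in each library (points, shaped by replicate) at 3, 13 and 21 months, with the mean and SD of 3 libraries. For Rplp0, Rplp1, Rps14, Rps19 and Rpl41 the libraries at 21 months lie below those at 3 months on this scale, while library totals alone put the log2 fold change of Rplp0 at 0.17, Rplp1 at 0.13, Rps14 at 0.25, Rps19 at 0.07 and Rpl41 at -0.004. For Rplp2, Rpl22 and Rps21 the ages overlap and 21-month replicate 1 is the highest library, at 119, 111 and 95.9 CPM.

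Changes of members relative to their own family were taken from a fit in which library size was the members' summed count. The members' median was then 0.0096, 0.041 and 0.039 at 13 against 3, 21 against 3 and 21 against 13 months. This median lies near 0 because of the scaling and is no finding. The same scaling put the median of all genes at 0.13, 0.27 and 0.15, so the shares of all genes below move with it. In edgeR's test 0 members were called in these fits, against backgrounds of 0.212%, 1.35% and 0.00622%. At an unadjusted p under 0.05, 1 member was higher at 13 against 3 months, against 5.02% of all genes. At 21 against 3 months 6 were higher and 1 lower, against 26.7% and 2.33% of all genes. Relative to the family, Rplp2 gave 0.45 ± 0.13 at 21 against 3 months, with an adjusted p of 0.0787, Rps21 0.53 ± 0.17 with 0.0952 and Rpl15 0.44 ± 0.15 with 0.0969. Rpl41 gave -0.34 ± 0.13 with an adjusted p of 0.126.

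Shares of the family's counts put the same values in other units. Rplp2 made up 1.02%, 1.04% and 1.02% of them at 3 months, with 1.07%, 1.14% and 1.29% at 13 months and with 1.63%, 1.35% and 1.24% at 21 months. Its libraries at 3 months lay below the other 6. Rplp0 made up 7.78%, 7.70% and 7.95% at 3 months and 6.14%, 7.51% and 7.30% at 21 months, and Rplp1 4.26%, 4.01% and 4.32% and 2.91%, 4.24% and 3.97%. For Rplp1 the 2 ages overlapped on this scale, since only 21-month replicate 1 lay far below the rest.

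At 13 against 3 months, 0 of 83 members were called by edgeR, against a background of 0.454%, and 0 had an unadjusted p under 0.05 in either direction, against 3.75% lower and 3.49% higher among all genes. DESeq2, with a background of 1.31%, and limma-voom also called 0. The median log2 fold change was -0.10 beside 0.01 over all genes, and 68 members were negative (81.9%), against 48.6% of all genes. The members' median log2 level had an SD between replicates of 0.078 at 3 months and 0.16 at 13 months. Members share the same libraries, so their signs do not count as separate observations. All 83 members lay within 1.5-fold, against 89.4% of all genes, and so did all 77 mitochondrial ribosomal proteins and all 38 initiation factors. The libraries did not overlap in 9 members lower at 13 months (10.8%) and in 1 higher, against 9.33% and 8.18% of all genes. Replicate 2 at 13 months had the lowest summed level of its age at 6709 CPM, and without it the median was -0.024.

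The 5 lowest log2 fold changes at 13 against 3 months were those of Rps16, Rpl28, Rps24, Rpl41 and Rpl17. Rps16 stood at 3.57, 2.98 and 2.69 CPM at 3 months and 2.54, 2.03 and 2.24 at 13 months, without overlap, and gave -0.44 ± 0.21 with an adjusted p of 0.704 by edgeR. Rps24, which stood at 307, 261 and 242 against 248, 179.6 and 208 CPM, gave -0.35 ± 0.19 with an adjusted p of 0.761, and the groups overlapped. Rpl41 gave -0.31 ± 0.16 and Rpl17 -0.27 ± 0.23. Rps6 stood at 13.7, 12.7 and 13.5 CPM at 3 months, then 11.4, 10.7 and 11.6 at 13 months and finally 13.1, 10.5 and 12.3 at 21 months. Its libraries at 13 months lay below those at 3 months, with -0.25 ± 0.12 and an adjusted p of 0.710.

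At 21 against 13 months edgeR again called 0 of 83 members, against a background of 0.00622%. At an unadjusted p under 0.05, 5 were lower (6.02%) and 0 higher, against 5.64% and 10.1% of all genes, and DESeq2 called 1 lower against 0.548%. The median log2 fold change was -0.11 beside 0.005 over all genes, and by library totals alone it was 0.46 and that of all genes 0.55. In 7 members (8.43%) the libraries at 21 months lay below those at 13 months, and in 0 above, against 8.25% and 7.99%. Rplp0 gave -0.37 ± 0.14 and Rps19 -0.34 ± 0.14, with adjusted p of 0.265 and 0.285. Both comparisons with 21 months share its 3 libraries, and both comparisons with 3 months share theirs.

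Several ribosomal proteins have a paralogue that replaces them in particular tissues. Rpl10l and Rpl39l, known from male germ cells, and Rpl3l, known from striated muscle, did not pass the filter. Rpl10l had 0 counts in all 9 libraries, which allows up to 0.121 to 0.181 CPM in 1 library. Rpl39l had 2 counts, both in 21-month replicate 3. Rpl3l had 1 count in 13-month replicate 1 and 4 in 21-month replicate 1. Their ubiquitous counterparts stood at 82.0 ± 6.85 CPM for Rpl10, 57.1 ± 3.88 for Rpl39 and 104 ± 6.29 for Rpl3 at 3 months (SD, n = 3). Of the windows of Rpl10, 91.6% also lie in another gene, so its level is uncertain.

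Rpl22l1 and Rps27l were expressed beside their partners. Rpl22 stood at 86.3, 88.3 and 83.4 CPM at 3 months and 111, 80.0 and 86.2 at 21 months, and Rpl22l1 at 16.5, 12.5 and 12.3 and at 8.58, 11.2 and 12.0. For Rpl22l1 the 2 ages did not overlap, and its log2 fold change was -0.38 ± 0.18 with an adjusted p of 0.221 by edgeR. The count ratio of Rpl22 to Rpl22l1 was 5.24, 7.07 and 6.79 at 3 months, with 6.03, 6.38 and 7.67 at 13 months and with 12.9, 7.14 and 7.16 at 21 months. Only 21-month replicate 1 stood clear of the rest.

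Rps27l, known in mouse and human cells as a p53 target, stood at 71.4, 46.3 and 49.5 CPM at 3 months, then 61.6, 48.0 and 41.7 at 13 months and finally 35.0, 32.1 and 47.4 at 21 months. The groups overlapped, and its log2 fold change at 21 against 3 months was -0.55 ± 0.22 with an adjusted p of 0.161. Its partner Rps27 stood at only 1.59 to 2.67 CPM over the 9 libraries. Since 98.4% of the windows of Rps27 also lie in another gene, and 89.5% of those of Rps27rt, a second copy, the level of Rps27 is uncertain and the ratio of the pair was not read. Rpl36a stood at 3.404 ± 0.321 CPM and Rpl36al at 1.89 ± 0.254 at 3 months, and both share over 50% of their windows with other genes.

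Rpl7l1, the relative of Rpl7, stood at 39.2, 36.9 and 34.9 CPM at 3 months and 32.3, 28.5 and 29.4 at 21 months, without overlap. Its log2 fold change was -0.30 ± 0.11, with an adjusted p of 0.151, beside -0.31 ± 0.13 and 0.177 for Rpl7. Rps19bp1, named for its binding to Rps19, stood at 6.57, 5.68 and 5.38 CPM and at 6.50, 3.89 and 4.81. Those groups overlapped, and it gave -0.21 ± 0.24 with an adjusted p of 0.604. These adjusted p are from edgeR's test at 21 against 3 months.

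Ribosomal proteins whose names fall outside the rule were listed too. Rack1, a signalling scaffold on the small subunit, stood at 447 ± 19.8, 406 ± 50.6 and 324 ± 35.0 CPM at 3, 13 and 21 months (SD, n = 3). Its log2 fold change at 21 against 3 months was -0.46 ± 0.14, with an adjusted p of 0.0914 by edgeR. Fau, made as a fusion with a relative of ubiquitin, stood at 3.51 ± 0.176 CPM at 3 months. It gave 0.10 ± 0.28 with an adjusted p of 0.856.

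The other lists of the translation machinery held 0 called genes in each of the 3 comparisons by edgeR. At 21 against 3 months and an unadjusted p under 0.05, 8 of 38 initiation factors were lower and 3 higher, and of 12 elongation and termination factors 1 was lower and 1 higher, against 10.3% lower and 14.1% higher among all genes. Eif3m and Eif3l, subunits of the initiation factor that binds the small subunit, gave -0.43 ± 0.11 and -0.37 ± 0.10, with adjusted p of 0.0707 and 0.0738. In the elongation list Eif5a2 gave 1.23 ± 0.39 and Eef1g -0.40 ± 0.16, with adjusted p of 0.106 and 0.168 by edgeR. Eif5a2 was low, at 1.56 ± 0.508 CPM at 3 months. In the RNA polymerase I list Taf1d gave -0.31 ± 0.10 and Tcof1 0.29 ± 0.12, with adjusted p of 0.104 and 0.179 by edgeR. The median log2 fold change was -0.14 for initiation factors, -0.16 for elongation factors, -0.12 for 55 nucleolar assembly factors and -0.13 for 21 genes of RNA polymerase I. For the 77 tested mitochondrial ribosomal proteins it was -0.18, with 13 lower and 1 higher at that p, beside the same shares of all genes.

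Among 24 regulators of mTORC1 and of the oligopyrimidine tract, 5 were lower and 0 higher at an unadjusted p under 0.05 at 21 against 3 months, and the median was -0.07. All genes gave 10.3% and 14.1%. Rps6kb1, the S6 kinase that phosphorylates Rps6, stood at 87.0 ± 3.36 CPM at 3 months and 65.4 ± 7.09 at 21 months. It gave -0.41 ± 0.11, with an adjusted p of 0.0731 by edgeR. Larp4, an RNA-binding protein that stabilises messages with poly(A) tails, gave -0.34 ± 0.12 with an adjusted p of 0.122. Of 13 chaperones and surveillance factors of ribosomal proteins, 1 was lower and 0 higher at that p, with a median of -0.02.

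Cell proliferation genes, by contrast, were called. Of 13 tested, 9 fell at 13 against 3 months and 7 at 21 against 3 months in edgeR's test, against 0.411% and 0.766% of all genes called lower. This list, like the others, was chosen with earlier results of these data known, so these shares are a description only. Mki67, a marker of cycling cells, went from 51.2 ± 6.17 CPM at 3 months to 6.35 ± 2.96 at 13 months. Its log2 fold change was -3.02 ± 0.33, with an adjusted p of 0.00914. In the same comparison the ribosomal protein genes had a median of -0.10 and the lowest was -0.44.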

How the data were processed

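The authors deposited raw read counts per Ensembl gene for 9 libraries, with no normalization, made with HISAT2 and featureCounts on GRCm38 (mm10) per the submitters' processing notes. Versions, annotation, strand setting and multi-mapping reads are not given in the sources used here. Symbols, lengths and coordinates came from GENCODE M21, which held 53274 of 53379 identifiers. The members and lists were chosen with earlier results of these data known.

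Genes were kept with filterByExpr (minimum count 10, minimum total 15), which left 16067. Counts were scaled by TMM and ages compared with the quasi-likelihood test of edgeR 4.0.16 in R 4.3.3 on all 9 libraries (6 residual degrees of freedom), adjusted by Benjamini-Hochberg over all genes and called under 0.05. A positive log2 fold change means more transcript at the later age, and its SE was taken from the F statistic. Adjusted p-values without another name are from this test. CPM is counts per 1e+06, scaled by TMM unless stated. The floor was 3 counts in a library, which equals 0.121 to 0.181 CPM. Shared windows were exact 100-base matches to transcripts of other genes. Pseudogene rows were matched by blastn with at least 90% identity over at least 50% of their length.

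Genes named are, in each comparison, the 5 members with the most positive and the 5 with the most negative change, the 10 highest and 5 lowest per kb, the stalk genes, Rpsa, Rps6, paralogue pairs, members under the filter and those that are no ribosomal protein. Each other list gives its called genes or the 2 of smallest p. Of these, the ones described are those whose values were needed. Some genes that the rule picks are not reported here. Rps4l is annotated as a pseudogene and is no member. Alternatives were DESeq2 1.42.0, limma-voom of limma 3.58.1, 4 other scalings, 2 other low-count filters, 6 libraries only, a replicate block, leaving out each library, 21-month replicate 3 alone and pseudogene counts added. No batch is given in the labels.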

Additional observations from a re-analysis of the deposited data

How the results depend on the processing

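The counts of members called were 0 at 13 against 3 months under all 22 alternatives. At 21 against 3 months DESeq2 called 5 lower (Rpl41, Rplp0, Rplp1, Rps14 and Rps19) and library totals alone called 9 higher. Leaving out a library gave 0 to 7 called lower, with 7 only without 21-month replicate 3. At 21 against 13 months DESeq2 called 1 lower. The cause was not tested.

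The median log2 fold change was 0.42 at 21 against 3 months and 0.46 at 21 against 13 months by library totals alone. Relative to the family's sum the median at 21 against 3 months was 0.041, where the scaling itself centres the members. In the fits that left out a library it ranged from -0.17 to -0.024 at 13 against 3 months, from -0.29 to -0.089 at 21 against 3 months and from -0.18 to -0.020 at 21 against 13 months.

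Adding rows named as pseudogenes put the mean share of counts at 0.756%, 0.726% and 0.955% at 3, 13 and 21 months, and the large to small subunit ratio at 1.48, 1.44 and 1.42.

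With the replicate number as a block, 0 members were called in any comparison and the medians were -0.11, -0.22 and -0.11. Deviations of libraries with the same number correlated at -0.24 to 0.29. With 3 libraries per age, and no reference from libraries of different number, this cannot decide whether the numbers pair the libraries. Low counts limit Rpl24, with 69 in all, and 3 members had too few to be tested.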
